A study of Homo sapiens with 27 samples.

Results

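Aminoacyl-tRNA synthetases are the enzymes that join each amino acid to its own tRNA, the step that gives the ribosome its charged tRNAs. The 36 genes described here were chosen as a family by name, with no measured value in the rule: 20 enzymes of the cytosol and 16 of the mitochondrion out of the 27115 genes in each expression file. Names that end in 2 mark the mitochondrial enzymes, and GARS and KARS make both forms from a single gene. All 36 were found in every library and all 36 passed the filter on low values over the whole series. The files use older symbols for 18 of the 20 cytosolic genes, so that AARS, for example, is the gene now named AARS1.

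Each cell makes its proteins in the cytosol and, for a few subunits of the respiratory chain, in the mitochondrion. Cytosolic and mitochondrial synthetases are nuclear genes, and most amino acids have a separate enzyme for each compartment. In the cytosol 8 of the enzymes listed here (DARS, EPRS, IARS, KARS, LARS, MARS, QARS and RARS) sit together in the multisynthetase complex on scaffold proteins, and the other 12 gene products work outside it. FARSA and FARSB are the subunits of a single phenylalanyl-tRNA synthetase, and EPRS is a fusion that charges tRNAs for glutamate and for proline. Many cytosolic synthetase genes are known targets of ATF4, the transcription factor of the amino acid stress response, and WARS is also known as an interferon-induced gene.

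RNA was measured in 3 established diffuse large B-cell lymphoma lines, Karpas422, OCI-Ly1 and HBL1. The study places Karpas422 in the OXPHOS subtype, OCI-Ly1 in the germinal centre subtype and HBL1 in the activated B-cell subtype. In each line cells received a control shRNA (shCTRL) or one of 2 shRNAs against SIRT3, the mitochondrial deacylase (shSIRT3_1 and shSIRT3_2), from a lentiviral vector with puromycin selection, and total RNA was taken on day 8. With 3 replicates in each of 9 groups this gave 27 libraries, and the comparison asks which genes change when SIRT3 is depleted. Both hairpins are compared with the same control libraries, and no label says that replicates were separate infections, so p-values measure the spread between these libraries, which may be technical.

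Between 28694398 and 53405456 reads per library fell on genes, and the level of a gene is given below as CPM, its reads out of every 1000000 reads of the library total. Genes made up between 71.2% and 80.5% of that total, with medians of 79.7% with shCTRL, 76.3% with shSIRT3_1 and 78.6% with shSIRT3_2. All 6 B-cell markers were present in every library, the lowest being CD22 at 8.04 CPM in HBL1. The 4 T-cell markers summed to at most 0.181 CPM in HBL1 and to at most 0.176 CPM in OCI-Ly1, while Karpas422 had 31.0 to 73.1 CPM of CD3G, with CD2 at or near 0. The 4 myeloid markers summed to at most 2.19 CPM and the 4 epithelial markers to at most 13.1 CPM in any library. Of the 3 germinal centre markers, BCL6 was at 109 CPM or more in every library, MME was at most 0.593 CPM in HBL1, and LMO2 was at most 4.45 CPM in all lines. Their sum in control against knockdown libraries was, in CPM, 1401 to 1637 against 947 to 1192 in Karpas422, 269.9 to 319 against 109 to 223 in HBL1 and 813 to 898 against 609.8 to 794 in OCI-Ly1. The 3 activated B-cell markers (IRF4, BATF and CCND2) summed to 1989 to 2135 CPM in HBL1 controls and 409 to 1742 after knockdown, and to at most 14.4 CPM in the other lines. The germinal centre sum was thus below the controls in every line after knockdown, as was the activated B-cell sum in HBL1. The sum of the 6 B-cell markers with shSIRT3_2 was below the controls in Karpas422 (1668 to 2621 against 2884 to 4173 CPM) and HBL1 (2640 to 2776 against 3142 to 3875 CPM). With shSIRT3_1 it was above them in OCI-Ly1 (3480 to 3956 against 3240 to 3446 CPM), and the other groups overlapped their controls. The part of these sums in the results was not tested.

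SIRT3 itself (chromosome 11, 215030 to 236931, minus strand, 7 exons, hg19) was checked first. SIRT3 in Karpas422 stood at CPM of 17.6, 16.1 and 18.04 with shCTRL, 4.31, 4.92 and 4.53 with shSIRT3_1 and 11.02, 9.39 and 7.79 with shSIRT3_2. HBL1 held SIRT3 at CPM of 23.9, 25.02 and 28.9 with shCTRL, 3.76, 4.22 and 3.53 with shSIRT3_1 and 5.02, 5.51 and 6.75 with shSIRT3_2. OCI-Ly1 gave SIRT3 a CPM of 18.9, 24.3 and 17.6 with shCTRL, 3.94, 1.87 and 2.86 with shSIRT3_1 and 10.9, 7.16 and 10.7 with shSIRT3_2. Every knockdown library lay below every control library of its own line. This corresponds to 18.3% of the control level with shSIRT3_1 and 38.8% with shSIRT3_2 over the 3 lines (adjusted p = 3.81e-10 and 2.21e-06, limma). Of its exon bases 84 overlap those of RIC8A on the opposite strand, and the strand setting of the counting is not given in the sources used here.

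One library stood apart for these genes and bears on all that follows. OCI-Ly1 shCTRL replicate 2 held the highest of the 3 OCI-Ly1 control values for 13 of the 13 cytosolic synthetases that fell with both hairpins, and for 11 of them it was over 1.5-fold above the next control. The ratio to the next control ran from 1.22 for DARS to 6.001 for WARS, with a median of 2.22. Over all 13076 genes tested the same library was the highest control for 39.9% and over 1.5-fold above the next for 7.66%. In Karpas422 and HBL1 no control library exceeded the next by more than 1.24-fold for any of the 13. Values without it are given for each synthetase gene shown in every library, and for other results where stated. The SIRT3 percentages above include it.

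The start-site regions of 6 genes that fell with both hairpins are printed here because they share a short motif. Promoters of 300 bases (RefSeq, GRCh38.p14, from 250 bases before the start site to 50 after) were found for 30 of the 36 genes. The letters TGATGNAA, a form of the C/EBP-ATF response element to which ATF4 and C/EBP proteins are known to bind, were searched on both strands. They were present in 6 of the 9 cytosolic genes with a promoter that were called lower with both hairpins. They were also in 1 of the 7 other cytosolic genes (NARS) and in 1 of the 14 mitochondrial genes (YARS2). NARS fell with both hairpins too, but was called with shSIRT3_1 only. Of all 27305 genes with a promoter 4.46% held the letters. Counted by promoter they were in 6 of 14, 1 of 7 and 1 of 18, against 3.62% of all 35116 promoters. The stricter letters TGATGCAA were present in 5 of those 9, 1 of 7 and 0 of 14, against 1.08% of all genes. Capitals mark the match, which in all 6 reads on the strand opposite to the gene.
AARS promoter, chr16:70289457-70289756, minus strand: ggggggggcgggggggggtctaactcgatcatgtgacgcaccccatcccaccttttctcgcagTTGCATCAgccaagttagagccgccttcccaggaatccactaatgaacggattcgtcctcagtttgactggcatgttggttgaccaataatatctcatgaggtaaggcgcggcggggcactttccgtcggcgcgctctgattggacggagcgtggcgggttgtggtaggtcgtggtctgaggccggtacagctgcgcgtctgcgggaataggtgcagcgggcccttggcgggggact
CARS promoter, chr11:3057374-3057673, minus strand: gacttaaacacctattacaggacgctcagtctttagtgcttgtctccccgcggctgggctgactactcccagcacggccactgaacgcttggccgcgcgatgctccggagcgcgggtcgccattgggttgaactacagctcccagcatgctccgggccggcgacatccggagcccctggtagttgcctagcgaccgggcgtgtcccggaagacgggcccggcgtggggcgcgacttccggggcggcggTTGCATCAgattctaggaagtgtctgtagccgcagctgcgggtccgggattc
GARS promoter, chr7:30594628-30594927, plus strand: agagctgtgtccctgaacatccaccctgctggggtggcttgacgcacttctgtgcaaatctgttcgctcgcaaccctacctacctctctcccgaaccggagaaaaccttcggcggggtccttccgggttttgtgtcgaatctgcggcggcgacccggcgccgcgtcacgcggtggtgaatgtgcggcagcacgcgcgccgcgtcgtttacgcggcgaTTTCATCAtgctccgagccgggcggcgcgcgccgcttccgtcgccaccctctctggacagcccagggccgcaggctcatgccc
IARS promoter, chr9:92293648-92293947, minus strand: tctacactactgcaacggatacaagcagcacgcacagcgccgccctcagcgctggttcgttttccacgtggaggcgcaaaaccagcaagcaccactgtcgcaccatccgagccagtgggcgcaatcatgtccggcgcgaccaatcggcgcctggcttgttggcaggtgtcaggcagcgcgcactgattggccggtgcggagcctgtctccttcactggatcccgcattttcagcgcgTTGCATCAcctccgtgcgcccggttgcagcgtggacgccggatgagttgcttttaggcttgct
MARS promoter, chr12:57487818-57488117, plus strand: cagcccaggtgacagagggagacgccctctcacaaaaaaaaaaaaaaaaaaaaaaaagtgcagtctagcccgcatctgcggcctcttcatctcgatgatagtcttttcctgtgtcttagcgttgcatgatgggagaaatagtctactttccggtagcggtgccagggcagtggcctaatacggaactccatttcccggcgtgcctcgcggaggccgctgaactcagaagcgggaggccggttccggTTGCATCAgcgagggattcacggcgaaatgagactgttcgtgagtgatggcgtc
TARS promoter, chr5:33440715-33441014, plus strand: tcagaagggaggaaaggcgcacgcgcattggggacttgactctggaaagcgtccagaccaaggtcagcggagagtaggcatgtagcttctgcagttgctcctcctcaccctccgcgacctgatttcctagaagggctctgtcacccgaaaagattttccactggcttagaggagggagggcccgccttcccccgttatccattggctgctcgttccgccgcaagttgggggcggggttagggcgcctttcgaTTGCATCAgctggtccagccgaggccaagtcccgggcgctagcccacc

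Of the printed matches 5 lie close to the start site. The first base of the match was at −33 in GARS, −13 in IARS, −4 in MARS, −2 in CARS and 3 in TARS, counted from the start site, and in AARS it was at −187. GARS holds TTTCATCA and the other 5 hold TTGCATCA. A match describes letters in a window and is no evidence of binding, and a window without a match says only that these letters are not in it.

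The cytosolic enzymes were mostly lower after SIRT3 knockdown, whereas the mitochondrial enzymes moved both ways by smaller amounts. Of the 20 cytosolic genes 13 fell with each hairpin, and they were the same 13: AARS, CARS, GARS, NARS, SARS, TARS, WARS and YARS among the 12 outside the complex, and DARS, EPRS, IARS, LARS and MARS among the 8 inside it. A fall or rise here means a Benjamini-Hochberg adjusted p under 0.05 over 13076 genes (limma), and 22.3% of all genes fell with shSIRT3_1, 21.7% with shSIRT3_2 and 10.5% with both. A gene is called where the fold is also above 1.5: 12 cytosolic genes were called lower with shSIRT3_1 and 10 with shSIRT3_2, against 9.09% and 10.2% of all genes. All 10 were called with both hairpins, 7 of the 12 outside the complex and 3 of the 8 inside it (EPRS, IARS and MARS), against 3.98% of all genes. Among all genes called, 69.9% were lower with shSIRT3_1 and 75.6% with shSIRT3_2, and after quantile normalization 54.6% and 57.4%. Under that scaling and the others tried no member changed direction. Without overlap between the 3 knockdown and 3 control libraries, 14 of the 20 were lower in Karpas422 with either hairpin, where 29.2% and 23.4% of all genes were, and 13 and 14 were in HBL1, where 29.7% and 34% were. In OCI-Ly1 such a gap was seen for 4 and 8 of the 20, against 13.4% and 17.2% of all genes.

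FARSA and HARS rose with both hairpins and RARS with shSIRT3_1, against 15.6% of all genes higher with shSIRT3_1, 16.3% with shSIRT3_2 and 7.65% with both. Among the 16 mitochondrial genes 5 rose and 3 fell with shSIRT3_1, and 6 rose and 4 fell with shSIRT3_2. The median log2 change of the 20 cytosolic genes was −0.67 with shSIRT3_1 and −0.60 with shSIRT3_2, where all genes tested had medians of −0.05 and −0.03. For the 12 genes outside the complex the medians were −1.13 and −1.28, for the 8 inside it −0.52 and −0.51, and for the 16 mitochondrial genes 0.13 and 0.12. In bulk RNA, less transcript per cell and fewer cells that carry it cannot be told apart.

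**Figure D1:**
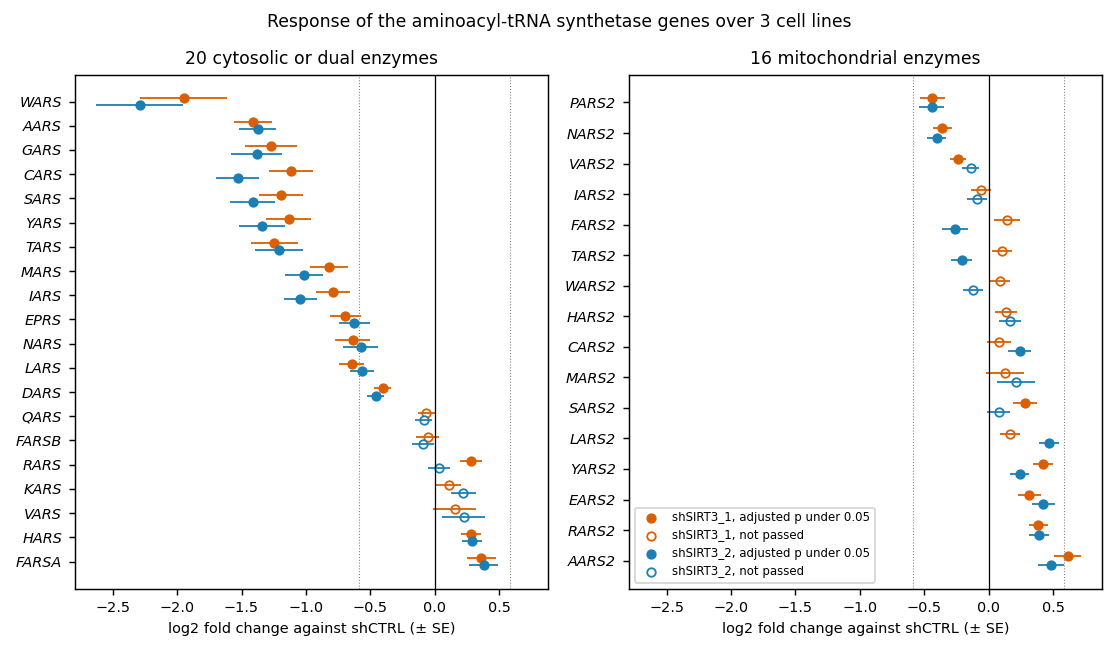
Log2 fold change against shCTRL over 3 cell lines for 20 cytosolic or dual enzymes (left) and 16 mitochondrial enzymes (right), with bars for the SE; filled points passed adjusted p under 0.05 and dotted lines mark a 1.5-fold change. WARS lies lowest at −1.95 and −2.29, and the mitochondrial genes lie between −0.44 and 0.61.

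Summed over the 20 cytosolic genes, the family's transcripts were lower after knockdown in Karpas422 and HBL1 without overlap. In Karpas422 the sum was 5897 to 6494 CPM in the 3 control libraries, 2639.7 to 3459 with shSIRT3_1 and 2198 to 2729 with shSIRT3_2. In HBL1 it was 7537 to 7796, 3009.8 to 3999.8 and 4152 to 4445 CPM. In OCI-Ly1 the controls held 3906, 7288 and 3169 CPM, the shSIRT3_1 libraries 2969 to 3378 and the shSIRT3_2 libraries 2836 to 3069, so that apart from control replicate 2 the groups lay close together and shSIRT3_1 overlapped the controls. The 16 mitochondrial genes summed to between 568 and 736 CPM in all 27 libraries. In HBL1 their sum was higher after knockdown without overlap, at 568 to 662 CPM in the controls and 690 to 736 with the hairpins. In Karpas422 and OCI-Ly1 the control and knockdown libraries overlapped with either hairpin.

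WARS (chromosome 14, 100800127 to 100843142, minus strand, 11 exons), the tryptophanyl-tRNA synthetase, had the largest fall of the family with either hairpin. WARS in Karpas422 stood at CPM of 962, 1191 and 589 with shCTRL, 187, 184 and 119 with shSIRT3_1 and 93.8, 92.3 and 81.2 with shSIRT3_2. HBL1 held WARS at CPM of 1564, 1780.5 and 1989 with shCTRL, 343, 291 and 170.02 with shSIRT3_1 and 402, 351 and 303 with shSIRT3_2. OCI-Ly1 gave WARS a CPM of 71.96, 432 and 47.2 with shCTRL, 75.1, 76.3 and 71.8 with shSIRT3_1 and 55.002, 42.5 and 48.01 with shSIRT3_2. For WARS the knockdown and control libraries did not overlap in Karpas422 and HBL1 and overlapped in OCI-Ly1 with both hairpins, where shCTRL replicate 2 was 6.001-fold above the next control. Within OCI-Ly1 its log2 change with shSIRT3_1 was −0.61 with that library and 0.35 without it (adjusted p = 0.556 and 0.268, limma). WARS fell over the 3 lines by 1.95 ± 0.34 on the log2 scale with shSIRT3_1 (SE; 25.9% of the control level; adjusted p = 7.33e-05, limma) and by 2.29 ± 0.34 with shSIRT3_2 (20.4%; adjusted p = 1.28e-05, limma). WARS log2 changes without OCI-Ly1 shCTRL replicate 2 were −1.80 and −2.14.

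AARS (chromosome 16, 70285886 to 70323610, minus strand, 21 exons), the alanyl-tRNA synthetase, which also edits mischarged alanine tRNA, was lower in each of the lines. AARS in Karpas422 stood at CPM of 488, 473 and 432 with shCTRL, 185, 196 and 103 with shSIRT3_1 and 157, 153 and 128 with shSIRT3_2. HBL1 held AARS at CPM of 759, 763 and 618 with shCTRL, 232, 246 and 189 with shSIRT3_1 and 289, 293 and 310.4 with shSIRT3_2. OCI-Ly1 gave AARS a CPM of 392, 842 and 367 with shCTRL, 283, 223 and 256 with shSIRT3_1 and 229, 209 and 207 with shSIRT3_2. All knockdown libraries of AARS lay below all control libraries of their line, and OCI-Ly1 shCTRL replicate 2 was 2.15-fold above the next control. AARS fell over the 3 lines by 1.41 ± 0.15 on the log2 scale with shSIRT3_1 (SE; 37.6% of the control level; adjusted p = 1.13e-07, limma) and by 1.38 ± 0.15 with shSIRT3_2 (38.5%; adjusted p = 2.61e-07, limma). AARS log2 changes without OCI-Ly1 shCTRL replicate 2 were −1.33 and −1.30.

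**Figure D2:**
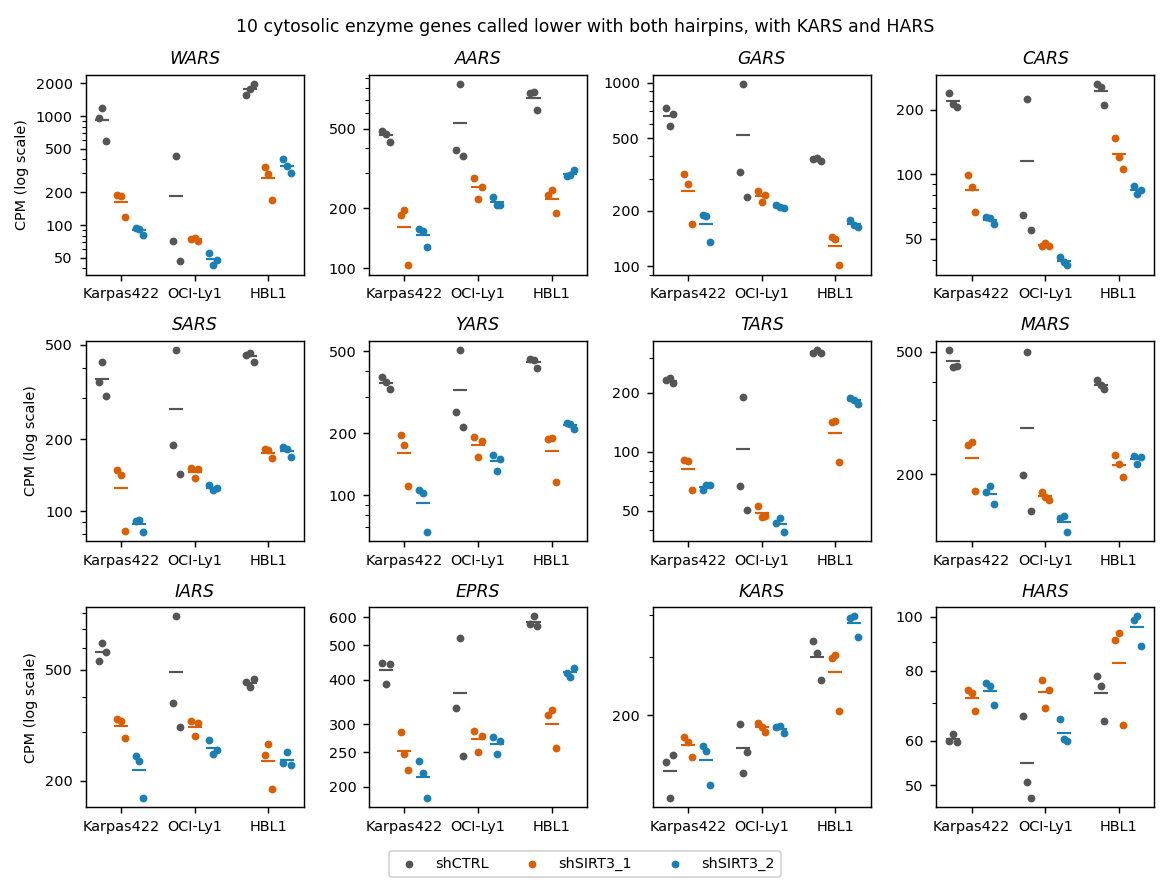
CPM in each library (points, log axis) and the mean of each group (lines) for the 10 cytosolic genes called lower with both hairpins and for KARS and HARS, by cell line and shRNA. For the 10 genes every knockdown point in Karpas422 and HBL1 lies below every control point of its line, and in OCI-Ly1 a single control point stands high.

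GARS (chromosome 7, 30620149 to 30673649, plus strand, 17 exons) supplies glycyl-tRNA synthetase to the cytosol and, from another start codon, to the mitochondrion, and its transcripts count for both. GARS in Karpas422 stood at CPM of 729, 584 and 674 with shCTRL, 318, 279 and 170.1 with shSIRT3_1 and 189.6, 188 and 135 with shSIRT3_2. HBL1 held GARS at CPM of 382, 389 and 373 with shCTRL, 145, 141 and 101 with shSIRT3_1 and 178, 167 and 164 with shSIRT3_2. OCI-Ly1 gave GARS a CPM of 327, 990.3 and 237 with shCTRL, 256, 225 and 244 with shSIRT3_1 and 215, 211 and 206 with shSIRT3_2. GARS in knockdown and control libraries did not overlap in Karpas422 and HBL1, whereas in OCI-Ly1 they were apart with shSIRT3_2 and overlapped with shSIRT3_1, where shCTRL replicate 2 was 3.03-fold above the next control. GARS fell over the 3 lines by 1.27 ± 0.20 on the log2 scale with shSIRT3_1 (SE; 41.4% of the control level; adjusted p = 2.42e-05, limma) and by 1.38 ± 0.20 with shSIRT3_2 (38.4%; adjusted p = 1.02e-05, limma). GARS log2 changes without OCI-Ly1 shCTRL replicate 2 were −1.14 and −1.25.

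SARS (chromosome 1, 109756540 to 109780804, plus strand, 11 exons), the seryl-tRNA synthetase, charges serine tRNAs and also the tRNA on which selenocysteine is made. SARS in Karpas422 stood at CPM of 350.1, 422 and 306 with shCTRL, 149, 142 and 82.9 with shSIRT3_1 and 91.1, 91.3 and 81.8 with shSIRT3_2. HBL1 held SARS at CPM of 455, 463 and 424 with shCTRL, 181, 180.3 and 167 with shSIRT3_1 and 185, 182 and 168 with shSIRT3_2. OCI-Ly1 gave SARS a CPM of 190.2, 475 and 143 with shCTRL, 151, 138 and 151 with shSIRT3_1 and 129, 122 and 125 with shSIRT3_2. SARS in knockdown and control libraries did not overlap in Karpas422 and HBL1, whereas in OCI-Ly1 they were apart with shSIRT3_2 and overlapped with shSIRT3_1, where shCTRL replicate 2 was 2.498-fold above the next control. SARS fell over the 3 lines by 1.19 ± 0.17 on the log2 scale with shSIRT3_1 (SE; 43.7% of the control level; adjusted p = 9.57e-06, limma) and by 1.41 ± 0.17 with shSIRT3_2 (37.5%; adjusted p = 1.42e-06, limma). SARS log2 changes without OCI-Ly1 shCTRL replicate 2 were −1.10 and −1.32.

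CARS (chromosome 11, 3022152 to 3078843, minus strand, 23 exons) is the cysteinyl-tRNA synthetase. CARS in Karpas422 stood at CPM of 239.5, 213 and 206 with shCTRL, 99.5, 87.6 and 67.03 with shSIRT3_1 and 63.2, 62.4 and 58.6 with shSIRT3_2. HBL1 held CARS at CPM of 264, 255 and 210.03 with shCTRL, 148, 121 and 106 with shSIRT3_1 and 88.2, 81.1 and 84.7 with shSIRT3_2. OCI-Ly1 gave CARS a CPM of 64.6, 225 and 55.2 with shCTRL, 46.1, 47.6 and 46.3 with shSIRT3_1 and 41.003, 39.1 and 37.6 with shSIRT3_2. All knockdown libraries of CARS lay below all control libraries of their line, and OCI-Ly1 shCTRL replicate 2 was 3.47-fold above the next control. CARS fell over the 3 lines by 1.12 ± 0.17 on the log2 scale with shSIRT3_1 (SE; 46.1% of the control level; adjusted p = 1.45e-05, limma) and by 1.53 ± 0.17 with shSIRT3_2 (34.6%; adjusted p = 3.73e-07, limma). CARS log2 changes without OCI-Ly1 shCTRL replicate 2 were −0.96 and −1.38.

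TARS (chromosome 5, 33440802 to 33468196, plus strand, 19 exons) is the threonyl-tRNA synthetase. TARS in Karpas422 stood at CPM of 231, 237 and 224 with shCTRL, 91.3, 89.9 and 63.98 with shSIRT3_1 and 63.98, 67.4 and 67.5 with shSIRT3_2. HBL1 held TARS at CPM of 317, 330.2 and 321 with shCTRL, 142, 144 and 89.2 with shSIRT3_1 and 189, 183 and 176 with shSIRT3_2. OCI-Ly1 gave TARS a CPM of 67.3, 190.3 and 50.6 with shCTRL, 53.1, 46.7 and 46.98 with shSIRT3_1 and 43.6, 45.9 and 39.1 with shSIRT3_2. TARS in knockdown and control libraries did not overlap in Karpas422 and HBL1, whereas in OCI-Ly1 they were apart with shSIRT3_2 and overlapped with shSIRT3_1, where shCTRL replicate 2 was 2.83-fold above the next control. TARS fell over the 3 lines by 1.24 ± 0.18 on the log2 scale with shSIRT3_1 (SE; 42.2% of the control level; adjusted p = 1.11e-05, limma) and by 1.21 ± 0.18 with shSIRT3_2 (43.2%; adjusted p = 1.82e-05, limma). TARS log2 changes without OCI-Ly1 shCTRL replicate 2 were −1.12 and −1.08.

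YARS (chromosome 1, 33240838 to 33283632, minus strand, 13 exons), the tyrosyl-tRNA synthetase, is a gene in which dominant variants are known to cause a peripheral neuropathy, as they are in GARS and AARS. YARS in Karpas422 stood at CPM of 376, 353 and 326 with shCTRL, 197, 175 and 110.4 with shSIRT3_1 and 107, 103 and 66.4 with shSIRT3_2. HBL1 held YARS at CPM of 456, 453 and 416 with shCTRL, 188, 189 and 117 with shSIRT3_1 and 225, 223 and 209 with shSIRT3_2. OCI-Ly1 gave YARS a CPM of 252, 506 and 214 with shCTRL, 192, 153 and 184 with shSIRT3_1 and 157, 132 and 149.9 with shSIRT3_2. All knockdown libraries of YARS lay below all control libraries of their line, and OCI-Ly1 shCTRL replicate 2 was 2.01-fold above the next control. YARS fell over the 3 lines by 1.14 ± 0.18 on the log2 scale with shSIRT3_1 (SE; 45.5% of the control level; adjusted p = 2.38e-05, limma) and by 1.34 ± 0.18 with shSIRT3_2 (39.5%; adjusted p = 3.59e-06, limma). YARS log2 changes without OCI-Ly1 shCTRL replicate 2 were −1.06 and −1.27.

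IARS (chromosome 9, 94972489 to 95056136, minus strand, 34 exons), the isoleucyl-tRNA synthetase, is one of the 3 members of the multisynthetase complex called lower with both hairpins. IARS in Karpas422 stood at CPM of 536, 624 and 580.1 with shCTRL, 332, 327 and 285 with shSIRT3_1 and 246, 235 and 173 with shSIRT3_2. HBL1 held IARS at CPM of 451, 434 and 464 with shCTRL, 247, 271 and 187 with shSIRT3_1 and 232, 254 and 228 with shSIRT3_2. OCI-Ly1 gave IARS a CPM of 380.3, 776 and 312 with shCTRL, 326, 288 and 321 with shSIRT3_1 and 279.7, 248.97 and 257 with shSIRT3_2. IARS in knockdown and control libraries did not overlap in Karpas422 and HBL1, whereas in OCI-Ly1 they were apart with shSIRT3_2 and overlapped with shSIRT3_1, where shCTRL replicate 2 was 2.04-fold above the next control. IARS fell over the 3 lines by 0.79 ± 0.13 on the log2 scale with shSIRT3_1 (SE; 57.9% of the control level; adjusted p = 4.52e-05, limma) and by 1.04 ± 0.13 with shSIRT3_2 (48.5%; adjusted p = 1.71e-06, limma). IARS log2 changes without OCI-Ly1 shCTRL replicate 2 were −0.71 and −0.96.

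MARS (chromosome 12, 57869228 to 57911352, plus strand, 21 exons), the methionyl-tRNA synthetase, charges both the initiator and the elongator tRNA of methionine. MARS in Karpas422 stood at CPM of 507, 446 and 449 with shCTRL, 250.02, 255 and 176 with shSIRT3_1 and 175, 184 and 159.98 with shSIRT3_2. HBL1 held MARS at CPM of 406, 390.3 and 379 with shCTRL, 231, 216 and 197 with shSIRT3_1 and 229, 216 and 228 with shSIRT3_2. OCI-Ly1 gave MARS a CPM of 199, 501 and 152 with shCTRL, 176, 168 and 165 with shSIRT3_1 and 144, 146 and 130.05 with shSIRT3_2. MARS in knockdown and control libraries did not overlap in Karpas422 and HBL1, whereas in OCI-Ly1 they were apart with shSIRT3_2 and overlapped with shSIRT3_1, where shCTRL replicate 2 was 2.52-fold above the next control. Its exons share 60 bases with DDIT3 on the opposite strand, 2.15% of the transcript length. MARS fell over the 3 lines by 0.82 ± 0.15 on the log2 scale with shSIRT3_1 (SE; 56.5% of the control level; adjusted p = 0.000107, limma) and by 1.02 ± 0.15 with shSIRT3_2 (49.4%; adjusted p = 1.04e-05, limma). MARS log2 changes without OCI-Ly1 shCTRL replicate 2 were −0.71 and −0.90.

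EPRS (chromosome 1, 220141942 to 220219872, minus strand, 32 exons), the fused glutamyl-prolyl-tRNA synthetase of the complex, had the smallest fall of the 10 genes called with both hairpins. EPRS in Karpas422 stood at CPM of 446, 389 and 443 with shCTRL, 285, 247 and 223 with shSIRT3_1 and 236, 219 and 186 with shSIRT3_2. HBL1 held EPRS at CPM of 575, 602 and 565 with shCTRL, 318, 328 and 257 with shSIRT3_1 and 419, 408 and 433 with shSIRT3_2. OCI-Ly1 gave EPRS a CPM of 334, 522 and 244 with shCTRL, 287, 251 and 277 with shSIRT3_1 and 275, 246 and 269 with shSIRT3_2. For EPRS the knockdown and control libraries did not overlap in Karpas422 and HBL1 and overlapped in OCI-Ly1 with both hairpins, where shCTRL replicate 2 was 1.57-fold above the next control. Its call with shSIRT3_2 was lost without OCI-Ly1 shCTRL replicate 2, where the fold fell below 1.5 (adjusted p = 0.000742, limma), and also without Karpas422 shSIRT3_2 replicate 3, where the log2 change was −0.57. EPRS fell over the 3 lines by 0.69 ± 0.12 on the log2 scale with shSIRT3_1 (SE; 61.8% of the control level; adjusted p = 7.64e-05, limma) and by 0.62 ± 0.12 with shSIRT3_2 (64.9%; adjusted p = 0.000262, limma). EPRS log2 changes without OCI-Ly1 shCTRL replicate 2 were −0.64 and −0.57.

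A further 3 cytosolic genes fell with both hairpins by less. LARS (chromosome 5, 145490129 to 145562259, minus strand, 32 exons), the leucyl-tRNA synthetase and a leucine sensor of the mTORC1 pathway, had log2 changes of −0.64 ± 0.10 with shSIRT3_1 (SE; adjusted p = 1.20e-05) and −0.57 ± 0.10 with shSIRT3_2 (adjusted p = 6.77e-05) (limma). LARS spanned, in CPM of the 3 control against the 6 knockdown libraries, 288 to 334 against 149.7 to 186 in Karpas422, 197 to 224 against 119 to 163 in HBL1 and 217 to 329 against 187 to 229 in OCI-Ly1. NARS, the asparaginyl-tRNA synthetase outside the complex, changed by −0.64 ± 0.14 with shSIRT3_1 (SE; adjusted p = 0.000739996) and −0.58 ± 0.14 with shSIRT3_2 (adjusted p = 0.00195) (limma). NARS spanned, in CPM of the 3 control against the 6 knockdown libraries, 352 to 424 against 183 to 212 in Karpas422, 439 to 465 against 262 to 420.2 in HBL1 and 179 to 493 against 183 to 214 in OCI-Ly1. Its call with shSIRT3_1 was lost without OCI-Ly1 shCTRL replicate 2, at a log2 change of −0.53 (adjusted p = 0.00117, limma). DARS (chromosome 2, 136663451 to 136743670, minus strand, 16 exons), the aspartyl-tRNA synthetase, changed by −0.40 ± 0.07 with shSIRT3_1 (SE; adjusted p = 3.66e-05) and −0.46 ± 0.07 with shSIRT3_2 (adjusted p = 9.06e-06) (limma), under 1.5-fold with either. DARS spanned, in CPM of the 3 control against the 6 knockdown libraries, 163 to 183 against 102 to 129.8 in Karpas422, 157 to 197 against 115 to 134 in HBL1 and 176 to 237 against 158 to 177 in OCI-Ly1. LARS and NARS passed the 1.5-fold limit with shSIRT3_1 and not with shSIRT3_2, and neither differed between the hairpins in the direct test (adjusted p = 0.552 and 0.763, limma).

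The 7 cytosolic genes without a fall included both subunits of the phenylalanyl enzyme. FARSA passed and FARSB did not, and the difference between them was not tested. FARSA, the catalytic subunit, rose by 0.36 ± 0.11 with shSIRT3_1 (SE; adjusted p = 0.0134) and 0.38 ± 0.11 with shSIRT3_2 (adjusted p = 0.00981) (limma), while FARSB, the other subunit, had log2 changes of −0.06 ± 0.09 with shSIRT3_1 (SE; adjusted p = 0.651) and −0.09 ± 0.09 with shSIRT3_2 (adjusted p = 0.436) (limma). FARSA spanned, in CPM of the 3 control against the 6 knockdown libraries, 64.5 to 73.3 against 67.9 to 101 in Karpas422, 86.1 to 124 against 106 to 179 in HBL1 and 97.2 to 139 against 101 to 148 in OCI-Ly1. FARSB spanned, in CPM of the 3 control against the 6 knockdown libraries, 80.99 to 90.7 against 51.2 to 79.3 in Karpas422, 97.1 to 141 against 125 to 150.1 in HBL1 and 81.3 to 101 against 80.9 to 91.7 in OCI-Ly1. HARS, the histidyl-tRNA synthetase, rose by 0.28 ± 0.08 with shSIRT3_1 (SE; adjusted p = 0.00647) and 0.29 ± 0.08 with shSIRT3_2 (adjusted p = 0.00523) (limma). HARS spanned, in CPM of the 3 control against the 6 knockdown libraries, 59.8 to 61.6 against 67.97 to 76.2 in Karpas422, 65.2 to 78.4 against 64.03 to 100.04 in HBL1 and 47.4 to 66.5 against 59.9 to 77.01 in OCI-Ly1. RARS, the arginyl-tRNA synthetase, had log2 changes of 0.28 ± 0.09 with shSIRT3_1 (SE; adjusted p = 0.0113) and 0.03 ± 0.09 with shSIRT3_2 (adjusted p = 0.781) (limma), and the hairpins differed by −0.25 (adjusted p = 0.0287). QARS, the glutaminyl-tRNA synthetase, had log2 changes of −0.06 ± 0.07 with shSIRT3_1 (SE; adjusted p = 0.471) and −0.09 ± 0.07 with shSIRT3_2 (adjusted p = 0.321) (limma). VARS, the valyl-tRNA synthetase, had log2 changes of 0.16 ± 0.17 with shSIRT3_1 (SE; adjusted p = 0.485) and 0.23 ± 0.17 with shSIRT3_2 (adjusted p = 0.3003) (limma).

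KARS (chromosome 16, 75661372 to 75682541, minus strand, 14 exons), the lysyl-tRNA synthetase, belongs to the complex and, through alternative splicing, also to the mitochondrion. KARS in Karpas422 stood at CPM of 144, 112 and 151 with shCTRL, 172, 166 and 149 with shSIRT3_1 and 162, 156 and 123 with shSIRT3_2. HBL1 held KARS at CPM of 336, 309 and 255 with shCTRL, 298, 305 and 206 with shSIRT3_1 and 393, 397 and 345 with shSIRT3_2. OCI-Ly1 gave KARS a CPM of 187, 134 and 155 with shCTRL, 189.7, 184 and 178 with shSIRT3_1 and 185, 185 and 176 with shSIRT3_2. The control and knockdown values of KARS overlapped in every line with shSIRT3_1, and with shSIRT3_2 the HBL1 knockdown libraries lay above the controls. KARS had log2 changes over the lines of 0.11 ± 0.10 with shSIRT3_1 (SE; adjusted p = 0.418) and 0.22 ± 0.10 with shSIRT3_2 (adjusted p = 0.0814) (limma). KARS log2 changes without OCI-Ly1 shCTRL replicate 2 were 0.07 and 0.19. GARS and KARS, the pair that serve both compartments, thus had different values: GARS was called lower with both hairpins and KARS passed with neither.

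Mitochondrial synthetases charge the tRNAs encoded in mitochondrial DNA, and for glutamine the mitochondrion instead amidates glutamate that EARS2 has loaded. AARS2, RARS2, EARS2 and YARS2 rose with both hairpins, and NARS2 and PARS2 fell with both. AARS2 with shSIRT3_1 was the one mitochondrial call above 1.5-fold over the lines, where 3.92% of all genes were called higher with shSIRT3_1 and 3.29% with shSIRT3_2. No mitochondrial gene was 1.5-fold lower with either hairpin.

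AARS2 (chromosome 6, 44266468 to 44281084, minus strand, 22 exons), the mitochondrial alanyl-tRNA synthetase, had the largest mean rise of the 16. AARS2 in Karpas422 stood at CPM of 21.99, 17.7 and 24.4 with shCTRL, 25.02, 26.7 and 30.5 with shSIRT3_1 and 30.7, 31.6 and 29.96 with shSIRT3_2. HBL1 held AARS2 at CPM of 79.7, 71.6 and 60.3 with shCTRL, 130.1, 119.9 and 170.4 with shSIRT3_1 and 102, 105 and 103 with shSIRT3_2. OCI-Ly1 gave AARS2 a CPM of 20.6, 13.5 and 16.6 with shCTRL, 23.3, 27.6 and 20.2 with shSIRT3_1 and 21.2, 21.9 and 21.2 with shSIRT3_2. All knockdown libraries of AARS2 lay above all controls of their line in Karpas422 and HBL1, and in OCI-Ly1 this held with shSIRT3_2 but not with shSIRT3_1. AARS2 rose over the 3 lines by 0.61 ± 0.10 on the log2 scale with shSIRT3_1 (SE; 153% of the control level; adjusted p = 5.16e-05, limma) and by 0.48 ± 0.10 with shSIRT3_2 (139.9%; adjusted p = 0.000668, limma). AARS2 log2 changes without OCI-Ly1 shCTRL replicate 2 were 0.58 and 0.45. Its call with shSIRT3_1 was close to the fold limit: without OCI-Ly1 shCTRL replicate 2 the log2 change fell under 1.5-fold, as it also did without HBL1 shCTRL replicate 3 (0.56) and without HBL1 shSIRT3_1 replicate 3 (0.54).

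RARS2 (chromosome 6, 88223177 to 88299746, minus strand, 20 exons) is the mitochondrial arginyl-tRNA synthetase. RARS2 in Karpas422 stood at CPM of 22.8, 20.4 and 26.6 with shCTRL, 32.3, 30.4 and 35.9 with shSIRT3_1 and 33.1, 30.8 and 38.6 with shSIRT3_2. HBL1 held RARS2 at CPM of 16.8, 17.7 and 19.6 with shCTRL, 22.2, 23.9 and 29.4 with shSIRT3_1 and 24.1, 24.8 and 24.3 with shSIRT3_2. OCI-Ly1 gave RARS2 a CPM of 39.3, 29.5 and 29.8 with shCTRL, 37.4, 37.1 and 36.96 with shSIRT3_1 and 37.1, 37.98 and 36.04 with shSIRT3_2. Knockdown libraries of RARS2 lay above the controls without overlap in Karpas422 and HBL1, and overlapped them in OCI-Ly1. RARS2 rose over the 3 lines by 0.39 ± 0.08 on the log2 scale with shSIRT3_1 (SE; 131% of the control level; adjusted p = 0.000331, limma) and by 0.39 ± 0.08 with shSIRT3_2 (131%; adjusted p = 0.000317, limma). RARS2 log2 changes without OCI-Ly1 shCTRL replicate 2 were 0.38 and 0.39.

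EARS2 (chromosome 16, 23532075 to 23569052, minus strand, 9 exons) is the mitochondrial glutamyl-tRNA synthetase. EARS2 in Karpas422 stood at CPM of 19.7, 20.9 and 20.2 with shCTRL, 25.3, 23.2 and 30.2 with shSIRT3_1 and 30.2, 27.2 and 24.997 with shSIRT3_2. HBL1 held EARS2 at CPM of 50.9, 46.3 and 36.9 with shCTRL, 54.7, 57.1 and 43.3 with shSIRT3_1 and 68.97, 73.3 and 59.4 with shSIRT3_2. OCI-Ly1 gave EARS2 a CPM of 47.9, 32.9 and 41.1 with shCTRL, 53.6, 48.9 and 53.4 with shSIRT3_1 and 48.3, 50.6 and 44.6 with shSIRT3_2. EARS2 was above all controls in Karpas422 with either hairpin, in OCI-Ly1 with shSIRT3_1 and in HBL1 with shSIRT3_2, and overlapped them in the other two groups. EARS2 rose over the 3 lines by 0.31 ± 0.09 on the log2 scale with shSIRT3_1 (SE; 124% of the control level; adjusted p = 0.00631, limma) and by 0.42 ± 0.09 with shSIRT3_2 (134%; adjusted p = 0.000522, limma). EARS2 log2 changes without OCI-Ly1 shCTRL replicate 2 were 0.28 and 0.39.

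**Figure D3:**
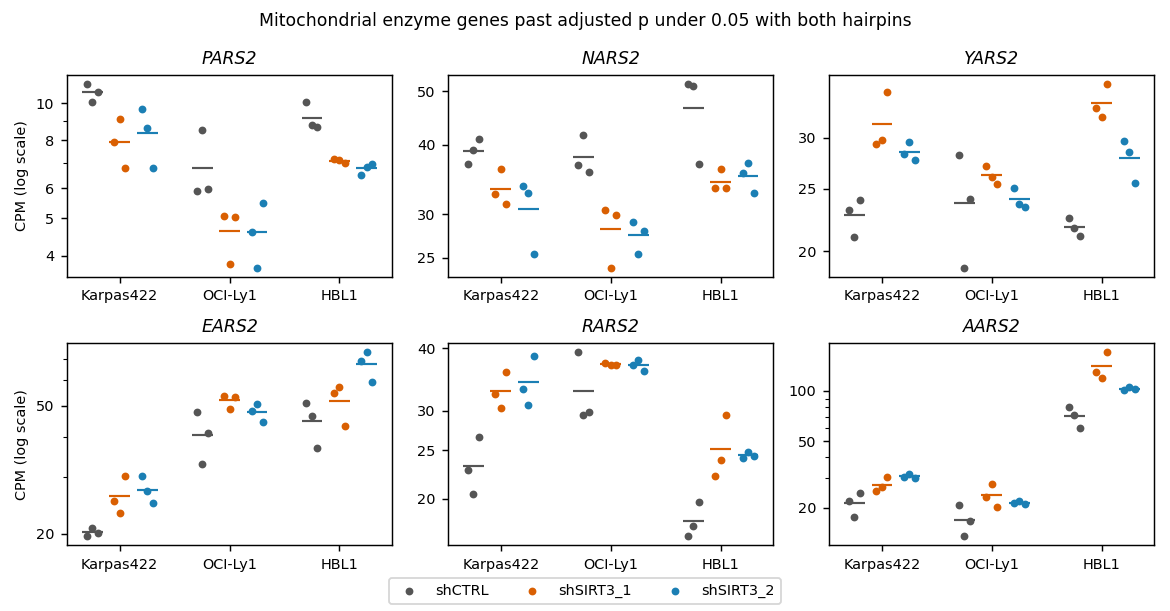
CPM in each library (points, log axis) and the mean of each group (lines) for the 6 mitochondrial genes that passed adjusted p under 0.05 with both hairpins, by cell line and shRNA. PARS2 and NARS2 fell and the other 4 rose, and AARS2 in Karpas422 and HBL1 lies above its controls in every knockdown library.

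YARS2, the mitochondrial tyrosyl-tRNA synthetase, rose by 0.42 ± 0.08 with shSIRT3_1 (SE; adjusted p = 0.000113) and 0.24 ± 0.08 with shSIRT3_2 (adjusted p = 0.0144) (limma). YARS2 spanned, in CPM of the 3 control against the 6 knockdown libraries, 21.01 to 23.99 against 27.7 to 35.3 in Karpas422, 21.1 to 22.5 against 25.5 to 36.4 in HBL1 and 18.9 to 28.2 against 23.4 to 27.1 in OCI-Ly1. Its rise was seen in Karpas422 and HBL1, where knockdown and control libraries did not overlap, and in OCI-Ly1 they overlapped. NARS2, the mitochondrial asparaginyl-tRNA synthetase, fell, with log2 changes of −0.36 ± 0.07 with shSIRT3_1 (SE; adjusted p = 0.000432) and −0.40 ± 0.07 with shSIRT3_2 (adjusted p = 0.000157) (limma). NARS2 spanned, in CPM of the 3 control against the 6 knockdown libraries, 36.9 to 40.9 against 25.4 to 36.2 in Karpas422, 36.98 to 51.6 against 32.7 to 37.2 in HBL1 and 35.7 to 41.6 against 24.02 to 30.5 in OCI-Ly1. PARS2, the mitochondrial prolyl-tRNA synthetase and one of the least abundant members, had log2 changes of −0.44 ± 0.10 with shSIRT3_1 (SE; adjusted p = 0.000876) and −0.44 ± 0.10 with shSIRT3_2 (adjusted p = 0.000853) (limma). PARS2 spanned, in CPM of the 3 control against the 6 knockdown libraries, 10.1 to 11.3 against 6.76 to 9.68 in Karpas422, 8.66 to 10.1 against 6.52 to 7.17 in HBL1 and 5.88 to 8.55 against 3.72 to 5.49 in OCI-Ly1. PARS2 was below all controls of its line with both hairpins in all 3 lines.

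The other mitochondrial genes passed with a single hairpin or with none. LARS2, for leucine, had log2 changes of 0.17 ± 0.08 with shSIRT3_1 (SE; adjusted p = 0.0927) and 0.47 ± 0.08 with shSIRT3_2 (adjusted p = 5.36e-05) (limma), and CARS2, for cysteine, 0.08 ± 0.09 with shSIRT3_1 (SE; adjusted p = 0.514) and 0.24 ± 0.09 with shSIRT3_2 (adjusted p = 0.0421). CARS2 no longer passed with shSIRT3_2 without OCI-Ly1 shCTRL replicate 2 (adjusted p = 0.0729, limma), which leaves 5 mitochondrial rises with that hairpin. SARS2, for serine, had 0.28 ± 0.09 with shSIRT3_1 (SE; adjusted p = 0.0156) and 0.08 ± 0.09 with shSIRT3_2 (adjusted p = 0.535), and VARS2, for valine, −0.24 ± 0.06 with shSIRT3_1 (SE; adjusted p = 0.00385) and −0.14 ± 0.06 with shSIRT3_2 (adjusted p = 0.0795) (limma). FARS2, for phenylalanine, had 0.14 ± 0.10 with shSIRT3_1 (SE; adjusted p = 0.264) and −0.26 ± 0.10 with shSIRT3_2 (adjusted p = 0.0421), and TARS2, for threonine, 0.10 ± 0.08 with shSIRT3_1 (SE; adjusted p = 0.321) and −0.21 ± 0.08 with shSIRT3_2 (adjusted p = 0.0352) (limma). IARS2, HARS2, MARS2 and WARS2 passed with neither hairpin, with log2 changes between −0.12 and 0.21. The direct test between the hairpins passed for 5 of the 36 genes, against 15.1% of all genes lower and 16.6% higher with shSIRT3_2: LARS2 (0.30), RARS (−0.25), FARS2 (−0.40), TARS2 (−0.31) and WARS2 (−0.21). For the 10 cytosolic genes called with both hairpins the log2 difference between the hairpins ran from −0.41 (CARS) to 0.07 (EPRS), with SE of 0.12 to 0.34, and none passed the test.

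For 13 amino acids the list holds exactly 1 cytosolic and 1 mitochondrial gene, and their ratio within a library does not depend on how libraries are scaled. The ratio of CPM is not corrected for transcript length, so only its change is read. Each of the 26 changes was tested with a two-sided exact permutation test of the shRNA labels within lines (8000 relabelings, smallest possible p 0.00025), with no adjustment over the 26. The ratio fell at p under 0.05 for 9 pairs with both hairpins (alanine, cysteine, isoleucine, leucine, methionine, serine, threonine, tryptophan and tyrosine). The cytosolic genes of these 9 pairs all fell over the lines in the same libraries, so the ratios are not separate evidence of those falls. The share of other gene pairs with such a change was not computed. The change was below 0 in all 3 lines for each of the 9, but without OCI-Ly1 shCTRL replicate 2 the OCI-Ly1 value with shSIRT3_1 turned for tryptophan (from −0.67 to 0.26) and methionine (from −0.52 to 0.03). Without that library, a setting added after seeing the data, the counts at p under 0.05 over the lines were 9 with shSIRT3_1 and 10 with shSIRT3_2.

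The AARS to AARS2 ratio in Karpas422 was 17.7 to 26.8 with shCTRL, 3.39 to 7.41 with shSIRT3_1 and 4.28 to 5.12 with shSIRT3_2. HBL1 had AARS to AARS2 ratios of 9.53 to 10.6 with shCTRL, 1.11 to 2.05 with shSIRT3_1 and 2.79 to 3.01 with shSIRT3_2. OCI-Ly1 had AARS to AARS2 ratios of 18.98 to 62.3 with shCTRL, 8.08 to 12.7 with shSIRT3_1 and 9.55 to 10.8 with shSIRT3_2. Control and knockdown ranges of the alanine pair did not overlap in any line. Its log2 change was −2.02 with shSIRT3_1 (p = 0.00025) and −1.86 with shSIRT3_2 (p = 0.00025) in the exact permutation test. The tryptophan pair (WARS to WARS2) changed by −2.04 with shSIRT3_1 (p = 0.002) and −2.17 with shSIRT3_2 (p = 0.001) in the exact permutation test, with OCI-Ly1 values of −0.67 and −1.06. In OCI-Ly1 the tryptophan ratio was 3.61 to 31.04 with shCTRL, 4.74 to 6.09 with shSIRT3_1 and 3.704 to 4.62 with shSIRT3_2, so the groups overlapped there. The other 7 pairs changed by between −0.73 and −1.77 on the log2 scale.

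Valine went the other way, with a VARS to VARS2 change of 0.40 with shSIRT3_1 (p = 0.033) and 0.37 with shSIRT3_2 (p = 0.039) in the exact permutation test. Without OCI-Ly1 shCTRL replicate 2 the value with shSIRT3_2 was 0.35 (exact permutation p = 0.0555), and with labels permuted within replicate numbers, as a replicate block, its exact permutation p was 0.0547. Arginine (RARS to RARS2) changed by −0.10 with shSIRT3_1 (p = 0.453) and −0.36 with shSIRT3_2 (p = 0.00275) in the exact permutation test. Histidine (HARS to HARS2) changed by 0.15 with shSIRT3_1 (p = 0.264) and 0.12 with shSIRT3_2 (p = 0.169) and asparagine (NARS to NARS2) by −0.28 with shSIRT3_1 (p = 0.105) and −0.17 with shSIRT3_2 (p = 0.325) in the exact permutation test. In the asparagine pair both genes fell over the lines, and in the histidine pair the cytosolic gene rose.

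**Figure D4:**
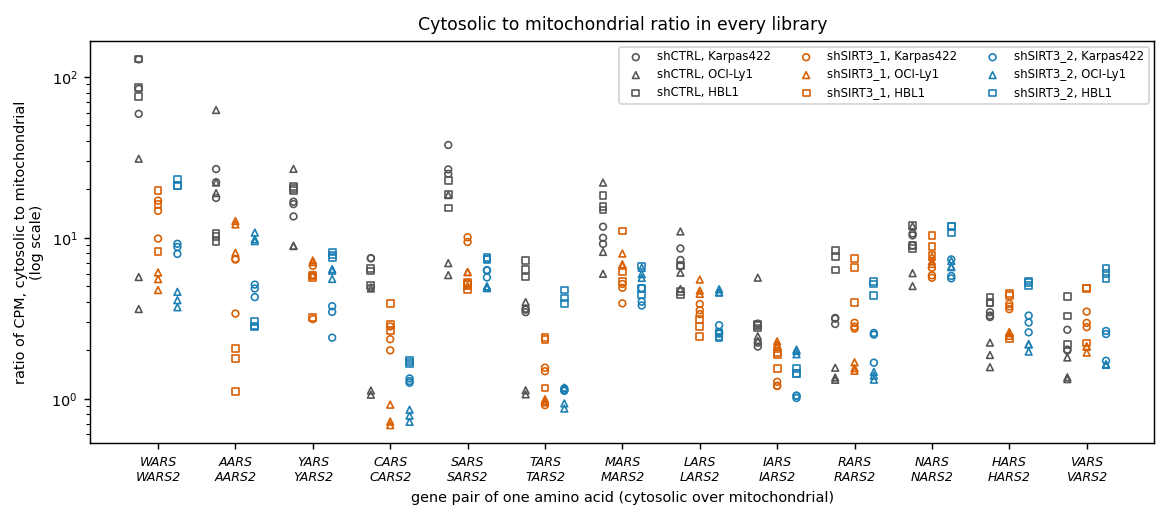
Ratio of cytosolic to mitochondrial CPM in each of the 27 libraries (points, log axis) for the gene pairs of 13 amino acids, with colour for the shRNA and shape for the cell line. The AARS to AARS2 ratio in HBL1 was 9.53 to 10.6 with shCTRL and 1.11 to 2.05 with shSIRT3_1.

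Each line was also fitted alone, since the lines come from different subtypes. In Karpas422 12 cytosolic genes were called lower with shSIRT3_1 and 13 with shSIRT3_2, against 11.5% and 9.44% of all genes. In HBL1 the counts were 11 and 9, against 18.8% and 16%. In OCI-Ly1 they were 0 and 2 (AARS and YARS; limma), against 2.45% and 4.26%. At an unadjusted p under 0.05, 4 cytosolic genes (AARS, CARS, DARS and YARS) were lower in OCI-Ly1 with shSIRT3_1 and 8 with shSIRT3_2, against 12.9% and 15.2% of all genes, and edgeR on the reads called 1 with shSIRT3_1. With the replicate number as a block, OCI-Ly1 had 1 call with shSIRT3_1 (AARS, adjusted p = 0.0467 against 0.0568 without the block, limma). Without control replicate 2, OCI-Ly1 had 0 calls with shSIRT3_1 and 3 with shSIRT3_2 (3 and 8 at an unadjusted p under 0.05, limma), namely AARS (−0.82), CARS (−0.61) and YARS (−0.67). In that setting 0.961% and 1.87% of all genes were called lower, and 10.1% and 12.3% were lower at the unadjusted p. AARS also passed the adjusted p there with shSIRT3_1, at −0.58 (adjusted p = 0.04602, limma).

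WARS shows the spread between lines. Its log2 changes with the hairpin pair were −2.45 and −3.30 in Karpas422, −2.78 and −2.34 in HBL1 and −0.61 and −1.23 in OCI-Ly1, where they were 0.35 and −0.27 without control replicate 2. For LARS they were −0.85 and −0.99 in Karpas422, −0.78 and −0.46 in HBL1 and −0.30 and −0.24 in OCI-Ly1, or −0.12 and −0.05 without that library. The response differed between lines for 8 of the 36 genes (EPRS, LARS, WARS, YARS, CARS2, HARS2, IARS2 and SARS2) in the limma interaction test. That is 22.2% of the family, a lower share than the 41.8% of all genes. Without OCI-Ly1 shCTRL replicate 2 the response differed for 19, or 52.8% of the family, against 44.4% of all genes in that setting. The 19 include all 13 cytosolic genes that fell over the lines (adjusted p from 6.23e-06 for WARS to 0.0498 for DARS, limma). In Karpas422 and HBL1 all 13 had log2 changes below 0 with both hairpins, and in OCI-Ly1 as well with all libraries, where without control replicate 2 NARS (0.02) and WARS (0.35) were above 0 with shSIRT3_1.

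Within HBL1 some mitochondrial genes and 1 cytosolic gene were called higher. AARS2 (0.98) and YARS2 (0.64) were called with shSIRT3_1, and EARS2 (0.59), LARS2 (0.60) and FARSA (0.69) with shSIRT3_2. Of all genes in HBL1 8.83% and 7.51% were called higher. The share of the whole family was below that of all genes with shSIRT3_1 and close to it with shSIRT3_2. These calls therefore do not set the family apart from other genes. With the replicate number as a block, VARS (0.84) and MARS2 (0.83) were called higher with shSIRT3_2 as well (adjusted p = 0.006801 and 0.00679, limma). The hairpins differed in HBL1 by over 1.5-fold for FARS2 (−0.66) and TARS2 (−0.61), and in Karpas422 for WARS (−0.85) and YARS (−0.80). Each was lower with shSIRT3_2, against 13.1% and 4.67% of all genes. The family's share was thus below that of all genes in HBL1 and close to it in Karpas422. In HBL1 the replicate block added VARS (0.67), higher with shSIRT3_2. SIRT3 itself was the more depleted with shSIRT3_1 in each line.

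**Figure D5:**
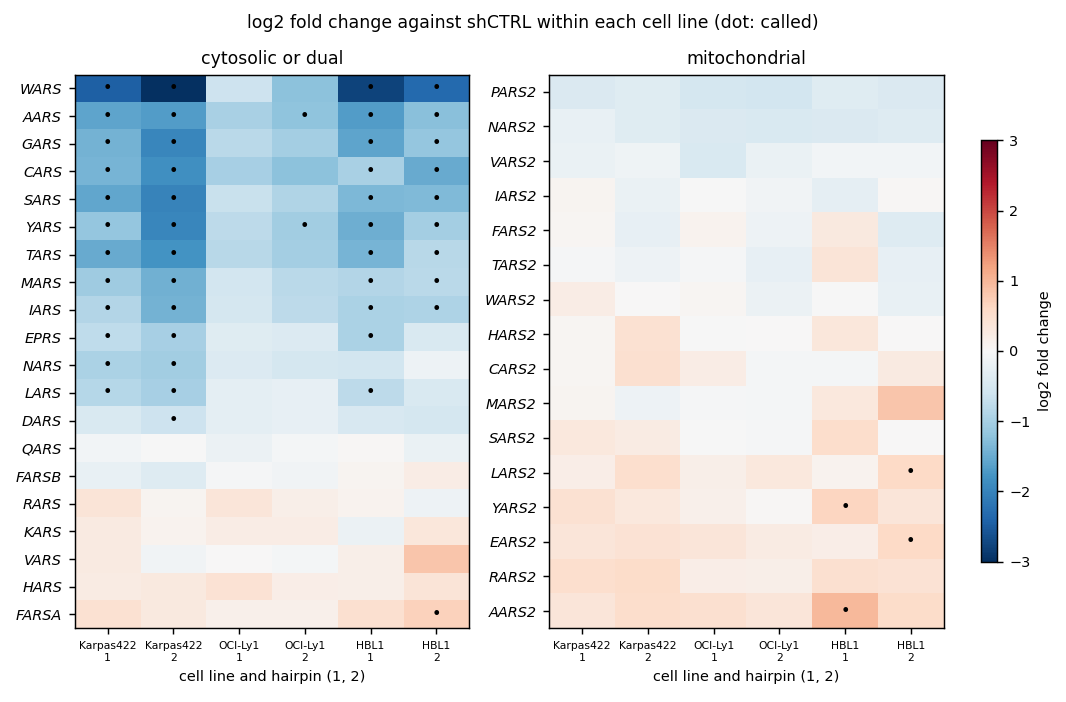
Log2 fold change against shCTRL of each of the 36 genes within each cell line, one column per line and hairpin, on a colour scale that ends at 3 in either direction (blue lower, red higher), with a dot where the gene was called. Most cytosolic genes are darker blue in Karpas422 and HBL1 than in OCI-Ly1, with WARS lowest at −3.30 in Karpas422, beyond the end of the scale.

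With the control shRNA, cytosolic synthetase transcripts were the more abundant in every line. Levels are compared between genes as CPM per kilobase of the MANE transcript, over the 3 control libraries. The median of the 20 cytosolic genes was 83.3 in Karpas422, 109.9 in HBL1 and 72.5 in OCI-Ly1, and that of the 16 mitochondrial genes 9.58, 8.55 and 11.5 CPM per kilobase. WARS led in HBL1 at 674 ± 80.5 (SD, n = 3), above SARS at 234 ± 10.7 without overlap of their libraries. In Karpas422 WARS at 346 ± 115 and GARS at 272 ± 30.1 overlapped, and GARS was above SARS at 188 ± 30.7 (SD, n = 3 each). In OCI-Ly1 GARS led at 213 ± 169 (SD, n = 3) and overlapped the next gene, AARS, with replicate 2 the highest library for both. The lowest cytosolic level was that of FARSB in HBL1 (18.7 ± 3.73), Karpas422 (12.6 ± 0.724) and OCI-Ly1 (13.3 ± 1.43). IARS2 was the highest mitochondrial gene in all 3 lines, at 68.6 ± 7.2998 in Karpas422, 44.8 ± 0.3602 in HBL1 and 40.5 ± 3.07 in OCI-Ly1 CPM per kilobase (SD, n = 3 each).

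Some members differed between the lines at baseline, that is between their shCTRL libraries. WARS was higher than in OCI-Ly1 by 3.96 ± 0.65 on the log2 scale in HBL1 and by 2.95 ± 0.65 in Karpas422 (SE; adjusted p = 0.000314 and 0.00251, limma), and by 4.92 and 3.91 without OCI-Ly1 control replicate 2. TARS was higher by 1.90 in HBL1 and 1.41 in Karpas422, and by 2.46 and 1.98 without it. AARS2 was higher in HBL1 than in either other line, by 1.72 against Karpas422 and 2.06 against OCI-Ly1 (adjusted p = 1.12e-05 and 2.81e-06, limma), which is the line with its highest CPM after knockdown as well. VARS2 was lower in HBL1, with log2 differences from Karpas422 and OCI-Ly1 of −0.96 and −1.57. In all, 10 members were called between HBL1 and Karpas422, 12 between HBL1 and OCI-Ly1 and 15 between Karpas422 and OCI-Ly1. Of all genes 28.8% were lower and 25.8% higher in HBL1 than in Karpas422, 25% and 29.6% in HBL1 than in OCI-Ly1, and 22.6% and 28.2% in Karpas422 than in OCI-Ly1. The members' shares were 27.8%, 33.3% and 41.7%, against 54.6%, 54.6% and 50.8% of all genes in either direction. Without OCI-Ly1 shCTRL replicate 2 they were 47.2% between HBL1 and OCI-Ly1 (17 genes) and 52.8% between Karpas422 and OCI-Ly1 (19 genes), against 54.3% and 50.4% of all genes.

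Other genes around the charged tRNA moved in both directions. Of 31 such genes 30 were tested, and 7 fell and 7 rose with shSIRT3_1 and 6 fell and 5 rose with shSIRT3_2. As shares of the 30 these were 23.3% and 20% lower and 23.3% and 16.7% higher, against 22.3% and 21.7% of all genes lower and 15.6% and 16.3% higher. Their median log2 changes were −0.03 and −0.09. XPOT, the nuclear export receptor of tRNA, was called lower with both hairpins, with log2 changes of −1.13 ± 0.18 and −1.11 ± 0.18 (SE; adjusted p = 3.47e-05 and 4.72e-05, limma). TSEN15, a subunit of the tRNA splicing endonuclease, changed by −1.21 ± 0.15 and −1.55 ± 0.15 (SE; adjusted p = 2.02e-06 and 1.15e-07, limma). SEPSECS, which completes selenocysteine on the tRNA that SARS has charged with serine, changed by −0.62 ± 0.12 and −0.76 ± 0.12 (SE; adjusted p = 0.0002298 and 2.77e-05, limma). None of the 3 multisynthetase scaffold genes (AIMP1, AIMP2 and EEF1E1) passed with both hairpins. AIMP2 was called lower with shSIRT3_1, at −0.64 ± 0.21, and did not pass with shSIRT3_2, at −0.30 ± 0.21 (SE; adjusted p = 0.0189 and 0.276, limma). Of the 9 carriers of charged tRNA 1 fell and 3 rose with shSIRT3_1 and 2 fell and 0 rose with shSIRT3_2.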

How the data were processed

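RNA-seq of 27 libraries was analysed, and samples were grouped by the cell line and shRNA in their labels. The authors aligned reads to hg19 with STAR and counted RefSeq genes with Rsubread, per the study's methods. The deposited values are named FPKM. Long and short genes share the same smallest increment within a library, and 100% of values were whole multiples of it at a tolerance of 0.001, so gene length does not enter the values. The increments carry a shared factor of 1766, as though a fixed length had been used, and multiplying the deposited values by 1.766 gives CPM, reads out of every 1000000 of a library total. Tests used the deposited FPKM values on the log scale, and fold changes are on the scale of log2(value + 0.1), which understates changes of low genes. The tests had been planned for such values, and edgeR on the whole reads recovered from them was an alternative.

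A gene entered a test where 3 or more of its libraries reached a deposited value of 1, which left 13076 genes over all libraries, 11235 in Karpas422, 11205 in OCI-Ly1, 11862 in HBL1 and 12607 for the controls of the 3 lines. Linear models (limma 3.58.1 in R 4.3.3, variance trend, Benjamini-Hochberg adjustment over all genes tested) had terms for cell line and shRNA over all 27 libraries, or shRNA within a line, and interaction terms were tested with an F test. Cytosolic to mitochondrial ratios were tested with exact permutations of the shRNA labels within lines. The members, the gene lists and the tests were chosen with earlier results of these data known. Values in every library are given for members called with both hairpins, for the 3 mitochondrial genes with the highest signed mean log2 change over both hairpins, and for GARS and KARS.

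Same-numbered libraries of a line deviated together: the mean correlation of their deviations from the group means was 0.32 over 27 pairs, against −0.14 over 54 pairs with different numbers. Deviations within a group cancel, so the negative mean follows from the positive mean and is not separate evidence. Of the pairs with the same number all 9 were over 0.1 in HBL1 and in OCI-Ly1, and 8 of 9 in Karpas422. Of the pairs with different numbers 6 of 18 were in HBL1, 1 of 18 in OCI-Ly1 and 5 of 18 in Karpas422. By the first count the numbers were taken to pair libraries in HBL1 and OCI-Ly1. The main fits have no term for this pairing, and fits with the replicate number as a block were an alternative. With the block, members whose response differed between lines went from 8 to 14. The labels give the numbers and no reason for them.

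Alternatives were no filter, a pseudocount of 1, scaling by median ratios or quantiles, the replicate number as a block, edgeR 4.0.16 (quasi-likelihood test) and leaving out each library or replicate number. On simulated data, the model over the lines recovered 185 of 192 genes changed 2-fold with shSIRT3_1 and 183 of 192 with shSIRT3_2. Over 12927 genes it called 0 unchanged genes. Fits within a line recovered 85.1% to 94.6% and called 3 to 17 unchanged genes. The interaction test recovered 102 of 196 genes changed 2-fold in HBL1 alone. The simulated libraries were independent, with a fixed spread for all genes and none that stood apart as OCI-Ly1 shCTRL replicate 2 did. These rates need not hold for the real libraries. Gene positions and MANE transcripts are those of GENCODE on hg19, and promoters are those of RefSeq on GRCh38.p14. Depth was 28694398 to 53405456 reads on genes per library, and the fewest reads of any of the 36 genes in a library were the 210 of PARS2. Figures were drawn with matplotlib 3.10.9 in Python 3.11.15.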

Additional observations from a re-analysis of the deposited data

Results flagged for a closer look

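The response to SIRT3 knockdown differed between the cell lines for 8 genes in the limma interaction test (Benjamini-Hochberg adjusted over 13076 genes), where 41.8% of all genes differed. EPRS, for glutamate and proline in the cytosol, had an adjusted p of 0.0424 in that test, with log2 changes with shSIRT3_1 and shSIRT3_2 of −0.76 and −1.001 in Karpas422, −0.96 and −0.47 in HBL1 and −0.36 and −0.41 in OCI-Ly1. LARS, for leucine in the cytosol, had an adjusted p of 0.00585 in that test, with log2 changes with shSIRT3_1 and shSIRT3_2 of −0.85 and −0.99 in Karpas422, −0.78 and −0.46 in HBL1 and −0.30 and −0.24 in OCI-Ly1. WARS, for tryptophan in the cytosol, had an adjusted p of 0.0296 in that test, with log2 changes with shSIRT3_1 and shSIRT3_2 of −2.45 and −3.30 in Karpas422, −2.78 and −2.34 in HBL1 and −0.61 and −1.23 in OCI-Ly1. YARS, for tyrosine in the cytosol, had an adjusted p of 0.0324 in that test, with log2 changes with shSIRT3_1 and shSIRT3_2 of −1.17 and −1.96 in Karpas422, −1.46 and −1.01 in HBL1 and −0.78 and −1.05 in OCI-Ly1. Without OCI-Ly1 shCTRL replicate 2 the OCI-Ly1 values were −0.07 and −0.11 for EPRS, −0.12 and −0.05 for LARS, 0.35 and −0.27 for WARS and −0.41 and −0.67 for YARS. CARS2, for cysteine in the mitochondrion, had an adjusted p of 0.0127 in that test, with log2 changes with shSIRT3_1 and shSIRT3_2 of 0.07 and 0.49 in Karpas422, −0.05 and 0.28 in HBL1 and 0.23 and −0.05 in OCI-Ly1. HARS2, for histidine in the mitochondrion, had an adjusted p of 0.00620 in that test, with log2 changes with shSIRT3_1 and shSIRT3_2 of 0.07 and 0.46 in Karpas422, 0.33 and 0.02 in HBL1 and −0.01 and 0.02 in OCI-Ly1. IARS2, for isoleucine in the mitochondrion, had an adjusted p of 0.0432 in that test, with log2 changes with shSIRT3_1 and shSIRT3_2 of 0.09 and −0.21 in Karpas422, −0.27 and 0.03 in HBL1 and −0.002 and −0.10 in OCI-Ly1. SARS2, for serine in the mitochondrion, had an adjusted p of 0.0426 in that test, with log2 changes with shSIRT3_1 and shSIRT3_2 of 0.32 and 0.25 in Karpas422, 0.54 and 0.003 in HBL1 and −0.02 and −0.02 in OCI-Ly1. Without OCI-Ly1 shCTRL replicate 2 the adjusted p of the interaction test was 0.000781 for EPRS, 0.000104 for LARS, 6.23e-06 for WARS, 0.00218 for YARS, 0.00886 for CARS2, 0.00507 for HARS2, 0.0463 for IARS2 and 0.0544 for SARS2 (limma). In that setting 52.8% of the 36 genes and 44.4% of all genes differed. No group held 4 or more samples, so single libraries were not tested as outliers.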

How the results depend on the processing

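Over the lines, the 12 and 10 cytosolic genes called lower with shSIRT3_1 and shSIRT3_2 ranged from 11 to 12 and from 10 to 12 over the 6 alternatives, and from 11 to 12 and from 9 to 12 when libraries were left out. Under those 6 settings 420 of 432 member changes had the same direction and side of the threshold, 7 no longer passed and 5 newly passed, and when libraries were left out 2099 of 2160 did. The 4 reversals were of values near 0 that had not passed: KARS with shSIRT3_1 (−0.00702 to 0.187 with libraries left out, below 0 without replicate 2), and RARS with shSIRT3_2 (−0.0374 to 0.0825), at −0.0374 without replicate 2, −0.00119 without OCI-Ly1 shCTRL replicate 2 and −0.0052 without OCI-Ly1 shCTRL replicate 3. Quantile normalization raised the mitochondrial genes higher with shSIRT3_1 from 5 to 8. With libraries left out that count ran from 3 to 6, and with shSIRT3_2 from 3 to 7, both lowest without replicate 2. Members that differed between the hairpins ran from 0 (without replicate 2) to 7, and were 3 without replicate 1 or HBL1 shSIRT3_2 replicate 3 and 2 without replicate 3. In Karpas422 leaving out libraries gave 11 to 12 and 12 to 13 cytosolic calls, in HBL1 9 to 12 and 5 to 10 (5 without replicate 1), and in OCI-Ly1 0 to 1 and 0 to 3. OCI-Ly1 with shSIRT3_1 had 1 call under median-ratio scaling, under edgeR, with the replicate block and without shCTRL replicate 1. With shSIRT3_2 it had 1 without a filter and without shSIRT3_1 replicate 1 or 3, and 0 without replicate 1, without replicate 3 or without any single shSIRT3_2 library. Members whose response differed between lines were 5 without a filter and 14 with the replicate block, and ran from 0 (without replicate 1) to 19 (without OCI-Ly1 shCTRL replicate 2), with 13 without replicate 2 and 3 without replicate 3. That count was 4 or 5 without Karpas422 shSIRT3_1 replicate 1 or 2, Karpas422 shSIRT3_2 replicate 3, OCI-Ly1 shSIRT3_1 replicate 1 or 3, OCI-Ly1 shSIRT3_2 replicate 1 or 3, HBL1 shCTRL replicate 2, HBL1 shSIRT3_1 replicate 3, or HBL1 shSIRT3_2 replicate 1 or 2. Baseline calls ran from 9 to 13 (HBL1 and Karpas422), 9 to 17 (HBL1 and OCI-Ly1) and 8 to 20 (Karpas422 and OCI-Ly1, 8 without replicate 1 and 9 without OCI-Ly1 shCTRL replicate 1). The cause was not tested in any of these. The ratio counts of 9 and 10 were the same with a pseudocount of 1, with the replicate block, without each replicate number and without OCI-Ly1 shCTRL replicate 2. With the replicate block 20 of the 26 ratio changes had p under 0.05 against 21. Apart from the calls named here and in the report, the replicate block changed no call of a member, with 13 and 10 members called over the lines in both fits. Over all genes, 1701 and 1760 were called and 1054 and 1036 with a pseudocount of 1.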
